A study of Homo sapiens with 6 samples.

Results

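The 45S ribosomal RNA units of chromosome 21 are 3 near-identical copies of the gene for the large ribosomal RNA precursor, RNA45SN2, RNA45SN3 and RNA45SN1 in their order along the chromosome, each followed by a spacer. They were examined as the stretch of the hg38 build that runs from 10 kb before RNA45SN2 to 30 kb past RNA45SN1, 280.585 kb in all, and every peak with at least 1 bp inside it was taken. This gave 134 of the 1743 peaks of 4 lists, with 63 in RBMX replicate 2, 71 in RPA1 replicate 2 and 0 in replicate 1 of either protein. The peaks of the stretch made up 10.5% of the RBMX list and 13.5% of the RPA1 list of replicate 2, and 63 of 68 RBMX and 71 of 74 RPA1 peaks of chromosome 21 lay there.

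The series asked where Flag-tagged RBMX, a member of the hnRNP proteins that bind RNA, and Flag-tagged RPA1, the large subunit of the single-stranded DNA binding complex replication protein A, sit on the DNA of 293T cells, a human embryonic kidney line. Each of the 4 precipitations used anti-Flag beads on cells transfected with Flag-RBMX or Flag-RPA1, so the protein measured was the introduced copy. All cells, those of the 2 input samples included, had been kept for 24 hours in camptothecin, which traps topoisomerase I on DNA. No untreated or untagged cells were compared, and whether replicates were separate cultures is not stated. After filtering, 6664290 tags (RBMX) and 6889249 tags (RPA1) were left in the replicate 2 libraries, and 20199680 and 20089972 in those of replicate 1. Replicate 1 was called by MACS 1.4.2 against a local background of up to 10000 bp, and replicate 2 by MACS2 2.2.4 against 1 level for the whole genome. The replicate and the way it was processed cannot be told apart, and the lack of replicate 1 peaks over the units is a statement about calling in those lists. With peaks in 1 list per protein, no value below has a replicate check, and no difference between the proteins was tested.

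Ribosomal RNA genes are transcribed by RNA polymerase I into a long precursor. External and internal transcribed spacers are cut out of it, and the 18S, 5.8S and 28S RNAs that remain go into the ribosome. The units are repeated head to tail on the short arms of the acrocentric chromosomes, separated by long intergenic spacers, and their heavy transcription makes them a known place of topoisomerase I activity and of RNA-DNA hybrids. How reads that match several copies were placed is not given in the sources used here, so the copies are not replicates of each other, and tags at 1 copy may come from another. The input set a single genome-wide level, so the number of copies in these cells was not removed from any peak.

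RefSeq (GRCh38.p14) had sequence entries for 3 of the 6 microRNA genes of the stretch. They are shown because they are annotated landmarks in or near the units, and because each lay under or close to a peak. The capitals mark the seed, bases 2 to 8 of each mature microRNA. The hairpin of MIR6724-4 (chr21:8432530-8432621, plus strand), which lies shortly before RNA45SN1, and that of MIR10396B (chr21:8436324-8436374, plus strand), inside the 5' external spacer of RNA45SN1, read
MIR6724-4: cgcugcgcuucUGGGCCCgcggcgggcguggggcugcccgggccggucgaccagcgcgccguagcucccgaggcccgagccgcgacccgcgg
MIR10396B: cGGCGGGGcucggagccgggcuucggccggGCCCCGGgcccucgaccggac
The hairpin of MIR6724-2 had the same 92 bases as MIR6724-4. G and C made up 83.7% of MIR6724-4 and 86.3% of MIR10396B, against a median of 52.1% over the 1562 hairpins of the table. The letters show how rich in G and C these landmarks are; the likeness of the units themselves was not measured here.

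MIR6724 sits 0.58 to 0.69 kb before the 45S start. An RPA1 peak covered the whole hairpin at MIR6724-1 with 25 tags at its summit, at MIR6724-3 with 20 tags and at MIR6724-4 with 24 tags. RPA1 was thus called just before the start of every one of the 3 genes. RBMX had a peak over MIR6724-4 alone, with 19 tags, and its nearest peaks to MIR6724-1 and MIR6724-3 were 978 bp and 905 bp away. At MIR6724-2, which opens a partial copy of the unit, neither list covered the hairpin, and the nearest peaks lay 57 bp (RBMX) and 35 bp (RPA1) from it. MIR10396B lay under an RBMX peak of 15 tags, and the nearest RPA1 peak was 758 bp away. MIR3648-1, in the 5' external spacer of RNA45SN2, lay whole under a peak of both lists, with 35 tags for RBMX and 39 for RPA1.

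Both proteins had peaks throughout all 3 units. Counted by summit, the RNA45SN2 unit held 18 RBMX and 18 RPA1 peaks, the RNA45SN3 unit 18 and 26, and the RNA45SN1 unit 24 and 22. The remaining 3 RBMX and 5 RPA1 summits lay in a partial copy after RNA45SN2 and in the sequence before RNA45SN2 and RNA45SN3. Peaks covered 20.7%, 19.8% and 24.7% of these units for RBMX, and 29.5%, 26.4% and 29.6% for RPA1. RPA1 thus covered more of each unit than RBMX, also where it had no more peaks. Its peaks were wider, with a median of 444 bp against 363 bp over the stretch.

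Summit height is given as tags, which the deposited pileup returns when divided by the scale of its list (0.959 for RBMX and 0.681 for RPA1). In the RNA45SN2 unit RBMX summits ran from 14 to 36 tags with a median of 17.5, in RNA45SN3 from 15 to 28 with a median of 19, and in RNA45SN1 from 14 to 32 with a median of 18.5. For RPA1 the ranges were 19 to 57 (median 27), 16 to 35 (median 22.5) and 19 to 42 (median 23). RBMX medians thus differed by less than 2 tags between units, while RPA1 stood highest in RNA45SN2. The peaks of the units were low for their lists: over the stretch the median was 18 tags for RBMX and 23 for RPA1, against 26 and 32 over the whole lists, where the lowest summits had 13 and 16 tags. As deposited, the pileup of the stretch ran from 13.4 to 34.5 for RBMX and from 10.9 to 38.8 for RPA1.

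The 3 highest RBMX peaks of the RNA45SN2 unit were at chr21:8211990-8213304 across 5.8S with 36 tags at a summit in ITS2 (exact Poisson 95% interval 25.2 to 49.8), at chr21:8208308-8209001 over MIR3648-1 with 35, and at chr21:8233610-8235047 in the spacer, also with 35. Those of RPA1 in this unit were at chr21:8234012-8235797 in the spacer with 57 tags (43.2 to 73.9), at chr21:8208302-8208986 with 39 and at chr21:8218289-8220643 across the 3' end of the gene with 38. The leading peaks of the proteins therefore shared the 5' external spacer position and the spacer position of this unit. These intervals, like all others given here, cover counting error only.

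In the RNA45SN3 unit the highest RBMX peak was at chr21:8394992-8396246 across 5.8S with 28 tags, followed by 2 spacer peaks of 26 tags. The highest RPA1 peaks of RNA45SN3 were all in the spacer, with 35, 33 and 30 tags, and the first of them, at chr21:8419593-8420589, lay within an RBMX peak of 26 tags. In RNA45SN1 both lists had their highest peak at or just past the end of the gene, at chr21:8446195-8447066 with 32 tags for RBMX and at chr21:8446702-8447114 with 42 for RPA1. Their second peaks also met in the spacer, with 28 and 33 tags. The next ones differed, a 28S peak of 23 tags for RBMX and a 5' external peak of 31 tags for RPA1.

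**Figure D1:**
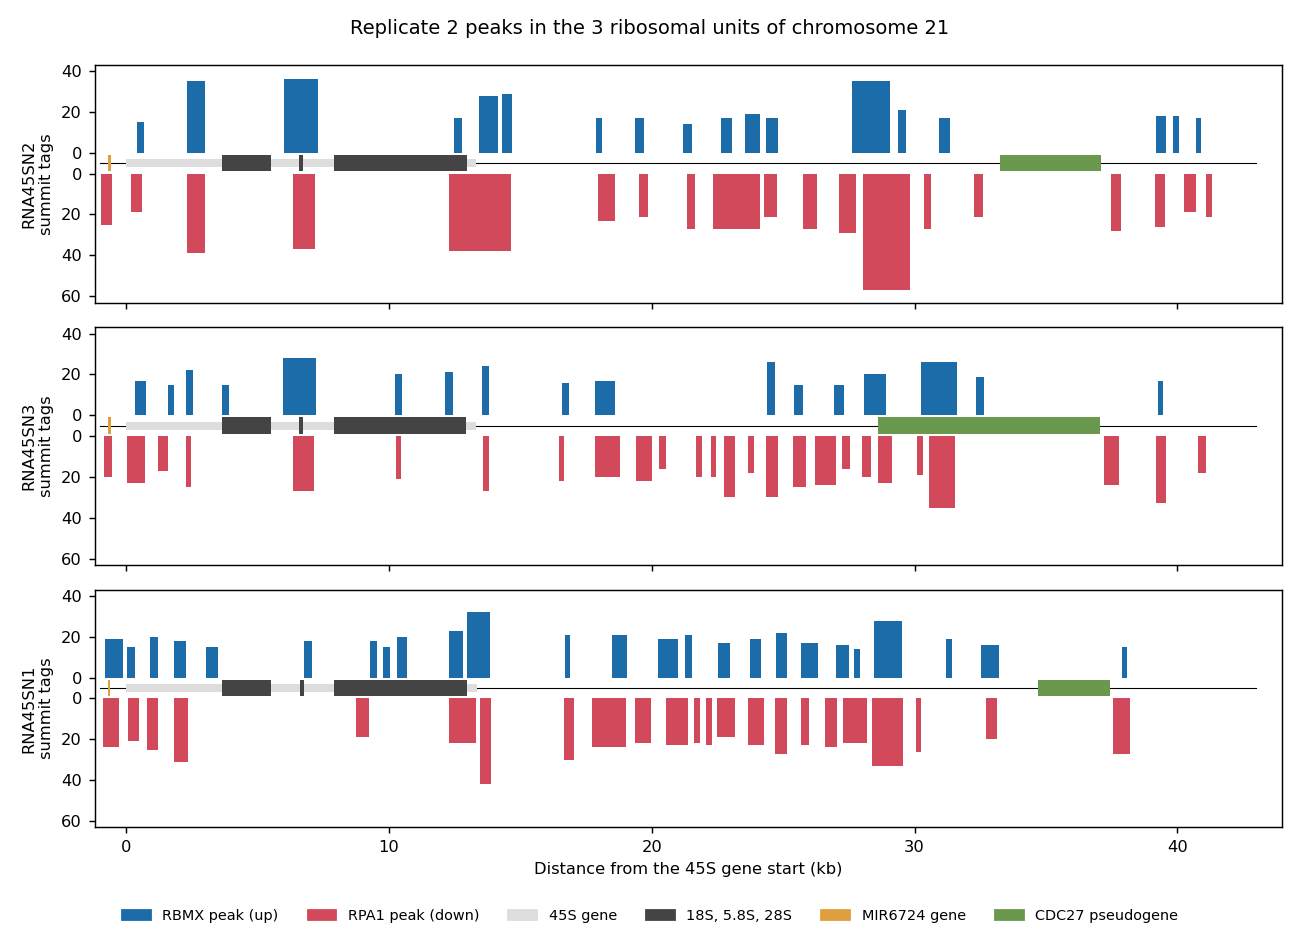
Replicate 2 peaks in each unit, by distance from the 45S gene start in kb (x axis); bars span the peak and their height is the number of tags at its summit (RBMX up, RPA1 down), with the annotated genes on the line between. The 18S gene is nearly free of peaks in all 3 units, and the highest bar is the RPA1 spacer peak of RNA45SN2, at 57 tags.

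The transcribed part made up 30.5% of the length of the 3 units. It held 20 of 60 RBMX summits (33.3%) and 13 of 66 RPA1 summits (19.7%). Per kb this is 0.500 RBMX summits in the transcribed part against 0.439 in the spacer, and 0.325 RPA1 summits against 0.582. Over the 3 units together RBMX was thus about as dense in the gene as in the spacer, and RPA1 was sparser in the gene. The units differed for RBMX, with 0.300 per kb in the gene against 0.464 in the spacer of RNA45SN2. In RNA45SN3 it had 0.526 against 0.356, and in RNA45SN1 0.674 against 0.500. RPA1 was sparser in the gene in each unit, with 0.225 against 0.497, 0.376 against 0.680 and 0.375 against 0.567 in the same order. By covered length over the 3 units together, the RBMX values were 23.2% of the gene and 21.05% of the spacer. Those of RPA1 were 20.4% and 32.1%.

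Within the gene, peaks of both lists lay mainly over the parts that are cut out of the precursor. Removed parts were covered to 33.9% by RBMX and 30.8% by RPA1, and mature parts to 13.7% and 11.2%. The 18S gene, whose RNA goes into the small ribosomal subunit, had a single RBMX peak, of 15 tags at the start of RNA18SN3, and no RPA1 peak. The nearest RPA1 peaks were 645, 840 and 1310 bp from RNA18SN2, RNA18SN3 and RNA18SN1. A gene with no peak may still hold tags below the floor of the list.

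The 5.8S gene, a short RNA of the large subunit, was wholly covered by both lists in 2 units but held 0 summits of either. The peak over RNA5-8SN2 had its RBMX summit of 36 tags in ITS2 and its RPA1 summit of 37 tags in ITS1, 665 bp apart. Over RNA5-8SN3 both summits lay in ITS1, with 28 and 27 tags. At RNA5-8SN1 an RBMX peak of 18 tags with its summit in ITS2 reached over 1.91% of the gene, and the nearest RPA1 peak was 1998 bp away. RBMX was thus called close to 5.8S in all 3 units, lowest in RNA45SN1, and RPA1 in RNA45SN2 and RNA45SN3 only. Around it, the internal spacers ITS1 and ITS2 were covered to 37.1% and 39.9% by RBMX and to 14.6% and 24.8% by RPA1.

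The 28S gene, which encodes the main RNA of the large subunit, differed between copies and lists. RBMX had 1 peak over RNA28SN2, 2 over RNA28SN3 and 5 over RNA28SN1, and RPA1 had 1, 1 and 2. Of summits inside 28S there were 7 for RBMX (15 to 23 tags) and 2 for RPA1 (19 and 21 tags). RPA1 covered nearly as much of it, 13.6% against 15.4%, in part through peaks whose summit lay beyond its 3' end. In the 5' external spacer the lists were alike in number, with 9 RBMX and 8 RPA1 summits and 31.2% and 34.2% of the length covered.

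**Figure D2:**
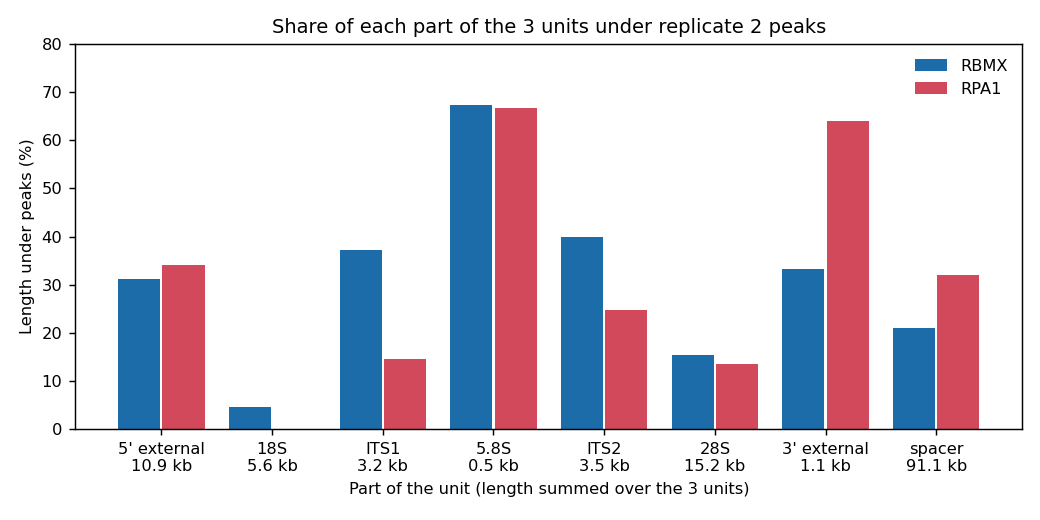
Share of the length of each part of the 3 units that lies under a replicate 2 peak, in percent (y axis, RBMX and RPA1 side by side; parts along the x axis with their summed length). The 5.8S gene is covered most by both lists, at 67.3% and 66.7%, and 18S least, at 4.57% for RBMX and 0% for RPA1.

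In the spacer, peaks were unevenly spread. Divided into 5 kb windows from the end of the 45S gene, the 3 spacers together held 8, 7, 10 and 9 RBMX summits and 7, 13, 15 and 9 RPA1 summits in the first 20 kb. From 20 to 25 kb they held 1 and 3, and from 25 to 30 kb 4 and 5. The RBMX coverage rose from 19.9% in the first window to 38.1% from 15 to 20 kb and was 1.33% in the next, and the RPA1 coverage was highest from 10 to 15 kb, at 54.2%, and 10.5% from 20 to 25 kb. From 25 to 30 kb the coverage was also low, at 6.91% for RBMX and 11.9% for RPA1. The window from 20 to 25 kb overlaps the CDC27 pseudogenes that RefSeq places in each spacer, and the last window lies past them. CDC27P9 and CDC27P11 had no peak of either list, and CDC27P10, annotated over a longer stretch, had 3 of each, all in its first part.

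Measured from the 45S start, part of the peaks had a partner near the same place in another unit. Of 60 RBMX summits placed this way, 6 had a partner within 200 bp in both other units, 18 in 1 other unit and 36 in none. Of 68 RPA1 summits the numbers were 14, 24 and 30. In bins of 100 bp, RBMX peaks of all 3 units met in 11 of 440 bins (2.5%) and RPA1 peaks in 39 (8.86%); RPA1 also covered more of the 3 units, 28.5% against 21.7%. Most RBMX peaks were thus called at a given place in 1 copy only. These counts vary with the distance allowed, as given in the closing section. The counts that unrelated placement would give were not computed, so recurrence beyond them is not shown.

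The positions at which both lists had a peak in all 3 units were 13.6 to 13.8 kb and 28.6 to 28.9 kb from the start, the first just past the gene and the second in mid-spacer. RBMX alone also met in all units at 6.8 to 7.1 kb, in ITS2, and at 31.2 to 31.4 kb. RPA1 met also at 0.8 to 0.6 kb before the start, over MIR6724, at 0.2 to 0.5 kb inside the gene, at several places between 18 and 28.2 kb, and at 37.6 to 37.8 kb. Stretches of at least 1.5 kb with no peak of either list in any unit lay at 3.9 to 6.0 kb, over most of 18S, at 7.3 to 8.8 kb, at 14.7 to 16.5 kb, at 33.2 to 37.2 kb over the CDC27 pseudogenes, and at 41.3 to 43 kb. These positions were read from the data and were not tested.

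**Figure D3:**
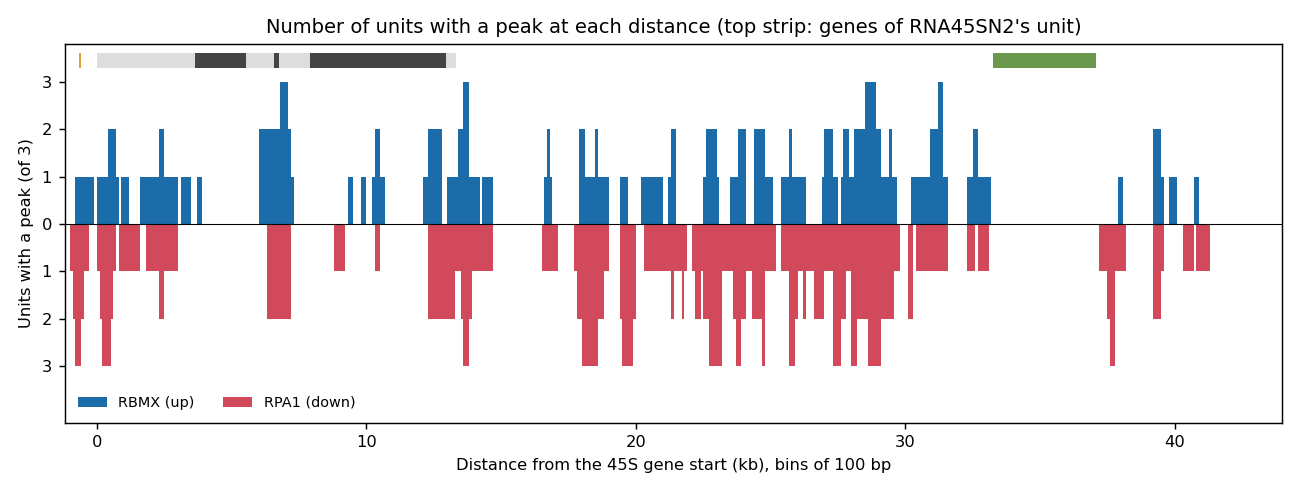
Number of the 3 units that have a replicate 2 peak in each 100 bp bin (RBMX up, RPA1 down), by distance from the 45S gene start in kb. The strip at the top shows the genes of the RNA45SN2 unit (light grey 45S, dark 18S, 5.8S and 28S, orange MIR6724-1, green CDC27P9); all 3 units have a peak of both lists at 13.6 to 13.8 kb and 28.6 to 28.9 kb.

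In every copy both lists had a summit within 1.5 kb past the gene, on the side of the terminator elements of RNA polymerase I. Within 1.5 kb of the 45S end the highest RBMX summit had 29 tags in RNA45SN2 (exact Poisson 95% interval 19.4 to 41.6), 24 in RNA45SN3 (15.4 to 35.7) and 32 in RNA45SN1 (21.9 to 45.2). For RPA1 it had 38 (26.9 to 52.2), 27 (17.8 to 39.3) and 42 (30.3 to 56.8). In both lists RNA45SN1 was highest and RNA45SN3 lowest, with intervals that overlap between the copies. The window ranked first of its unit for both lists in RNA45SN1, and lower in the other units. The summits compared are not all at the same position. That of RBMX in RNA45SN2 lay 1134 bp past the end, and the others at 301 to 435 bp. RNA45SN2 also had an RBMX summit of 28 tags at 438 bp.

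The same window was compared with RNA45SN4 and RNA45SN5, copies that were taken here, from general knowledge of the build, to lie on the sequences chr22_KI270733v1_random and chrUn_GL000220v1. RNA45SN4 had 49 RBMX tags (36.3 to 64.8) and 77 RPA1 tags (60.8 to 96.2), and RNA45SN5 had 40 and 57. Both had more tags than any copy of chromosome 21, and for RPA1 the interval of RNA45SN4 did not meet that of any of the 3. The RBMX and RPA1 summits lay 69 and 114 bp past the end in RNA45SN4, and 1143 and 1088 bp in RNA45SN5. The window thus need not hold the same peak in each copy. From 2 to 3.2 kb past the 45S start RNA45SN5 was not above all copies of chromosome 21, with 21 RBMX and 29 RPA1 tags. RNA45SN4 was, with 45 and 46, against 35 and 39 in RNA45SN2, 22 and 25 in RNA45SN3 and 18 and 31 in RNA45SN1. In the last 1 kb before the start RPA1 had 17 tags in RNA45SN5 and 23 in RNA45SN4, against 20 to 25 on chromosome 21. RBMX had 20 and 17 tags there, against 19 in RNA45SN1, the only copy of chromosome 21 with an RBMX summit there. How reads were divided among these copies was not tested.

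**Figure D4:**
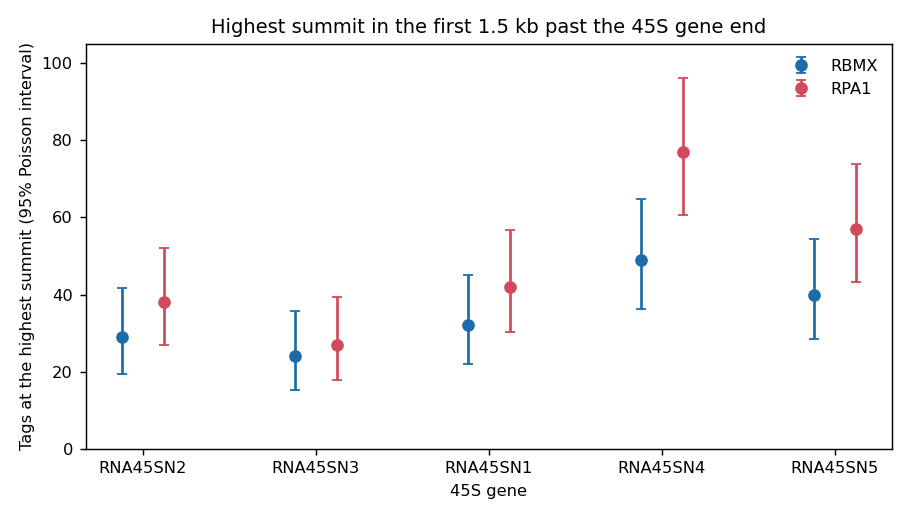
Tags at the highest replicate 2 summit in the first 1.5 kb past the end of each 45S gene (y axis), for RBMX and RPA1; points are the counts and bars the exact Poisson 95% interval. All 5 copies have a summit there in both lists, from 24 tags for RBMX in RNA45SN3 to 77 for RPA1 in RNA45SN4. The summits lie 69 to 1143 bp past the gene end, so they need not be the same peak.

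Most RBMX and RPA1 peaks of the units overlapped a peak of the other protein. Of 63 RBMX peaks, 49 (77.8%, Clopper-Pearson 95% interval 65.5% to 87.3%) overlapped an RPA1 peak, near the 76.3% of the whole RBMX list. Of 71 RPA1 peaks, 48 (67.6%, interval 55.5% to 78.2%) overlapped an RBMX peak, below the 87.5% of the whole RPA1 list and the 90.6% (87.5% to 93.1%) of its peaks outside the units. The RBMX share was thus near that of its list, and the RPA1 share below that of the rest of its list, with intervals that do not meet; the difference itself was not tested. With a stricter overlap the RBMX share was below its list too, at 49.2% against 65.7% when 50% of both peaks had to overlap and at 36.5% against 58.4% when summits had to lie within 100 bp. Peaks of 1 list lie close together here, so these intervals, which take them as independent, are too narrow.

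The share of peaks with a partner differed between the parts, with counting intervals that overlap. In the spacer a partner was found for 35 of 40 RBMX peaks (87.5%, interval 73.2% to 95.8%) and 35 of 53 of RPA1 (66.0%, 51.7% to 78.5%). In the transcribed part it was found for 12 of 20 (60%, 36.1% to 80.9%) and 11 of 13 (84.6%, 54.6% to 98.1%). RBMX peaks without a partner numbered 8 in the gene, such as 4 of the 7 with a summit in 28S, and 5 in the spacer. Of all RBMX summits of the units, 33.3% lay in the gene. RPA1 peaks without a partner numbered 2 in the gene and 18 in the spacer, where 80.3% of all its unit summits lay. The 14 of RBMX had 15 to 21 tags with a median of 18, close to the median of 19 (14 to 36) of those with a partner. The 23 of RPA1 had 16 to 30 tags with a median of 21, against 24.5 (16 to 57) with a partner. A partner just under the floor of the other list would be missed, and its part in these counts was not tested.

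Merging the peaks of both lists gave 79 stretches, of which 42 were held by both, 14 by RBMX alone and 23 by RPA1 alone. At the 42, the ratio of RBMX to RPA1 in summit tags per 1000000 tags of the library, here called depth-scaled tags, ran from 0.533 to 1.07 with a median of 0.817, against 0.897 over the 435 such stretches of the whole lists; on the deposited pileup the median was 1.11 and on the deposited fold 1.01, so the direction turns with the scale. On those scales the medians of the whole lists were 1.22 and 1.11. The units, whose peaks were low for their lists, were thus lower in RBMX relative to RPA1 than the lists as a whole. Depth-scaled tags and pileup differ by 1 fixed factor per list, and the fold sets the pileup against 1 genome-wide level. The scales are therefore not separate measures of this order. By unit the median ratio in depth-scaled tags was 0.789 in RNA45SN2, 0.849 in RNA45SN3 and 0.827 in RNA45SN1, on the pileup 1.07, 1.16 and 1.13, and on the fold 0.980, 1.05 and 1.02. RNA45SN2 was lowest of the 3, an order that the scales share for the same reason. In depth-scaled tags the lowest summits of the whole lists were 1.95 (RBMX) and 2.32 (RPA1). Median summits of the stretch, at 18 and 23 tags, lay nearer these floors than the list medians of 26 and 32. Whether the unequal floors account for the lower ratio here was not tested.

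RPA1 exceeded RBMX by 1.5 times in 8 of the 42 stretches on the scale of depth-scaled tags (9.66% of all 435 did), but in 0 on the deposited pileup or fold. RBMX exceeded RPA1 by as much in 0 of 42 (1.61% of all). The counting interval of the ratio lay below 1 in 2 of the 42, against 7.13% of all. Both are spacer positions: in RNA45SN2 35 RBMX and 57 RPA1 tags gave a ratio of 0.635 (0.404 to 0.984), and in RNA45SN3 17 and 33 tags gave 0.533 (0.278 to 0.984). At the other 40 the interval held 1, so a difference was not detectable at this depth. The median ratio was 0.868 over the 10 stretches of the gene and 0.788 over the 30 of the spacer in depth-scaled tags. On the deposited pileup these medians were 1.18 and 1.07, and on the deposited fold 1.07 and 0.980, so that of the spacer stayed below 1 on the fold and that of the gene did not.

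**Figure D5:**
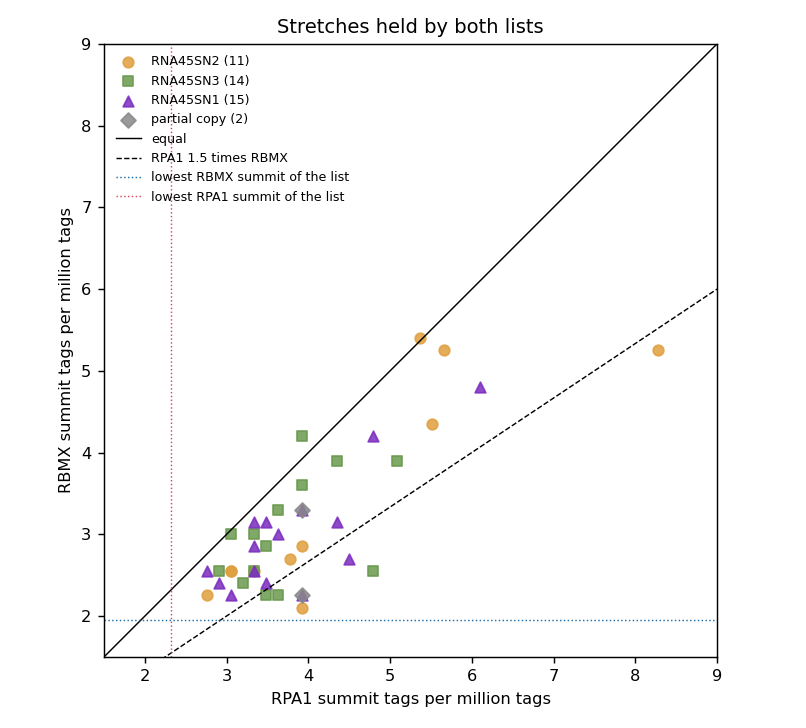
RBMX (y axis) against RPA1 (x axis) summit tags per 1000000 tags at the 42 stretches held by both replicate 2 lists; each point is a stretch, marked by unit, and the lines show equality, an RPA1 value 1.5 times that of RBMX, and the lowest summit of each list. On this scale 40 points lie below the line of equality; on the deposited pileup and fold the median ratio is 1.11 and 1.01.

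The summits of the proteins were farther apart over the units than over most of the lists, as they were on the sequences of the other 45S copies. The median distance between the highest summits of a stretch was 128.5 bp, against 23 bp outside, 120.5 bp on chrUn_GL000220v1 and 82 bp on chr22_KI270733v1_random. They were within 100 bp of each other in 20 of 42, against 78.9% of all 435 stretches, and in 9 of 22 and 13 of 22 on those sequences. In the RNA45SN3 unit it was 10 of 14, in RNA45SN1 7 of 15 and in RNA45SN2 3 of 11. Close highest summits were thus most frequent in RNA45SN3 and least in RNA45SN2. The median distance was 54 bp in RNA45SN3, 123 bp in RNA45SN1 and 224 bp in RNA45SN2, so RNA45SN3 was nearest the 23 bp outside. Nearer pairs of lower summits are missed when only the highest are compared. In RNA45SN2 a stretch with 699 bp between its highest summits also held an RBMX summit at 8219740, beside that of RPA1 at 8219737. Among all summits of the region examined, 23 pairs lay within 100 bp. Each unit had 3 merged stretches with more than 1 peak of a list.

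Other ribosomal loci were used to see which of these features the units shared. In the 5S array of chromosome 1, which encodes the small RNA that RNA polymerase III makes for the ribosome, an overlap was found for 91.3% of 23 RBMX and 100% of 29 RPA1 peaks, and the median ratio was 1.03 in depth-scaled tags (1.27 on the fold, 1.41 on the pileup). On the sequences taken to hold RNA45SN4 and RNA45SN5 the ratios were 0.831 and 0.781 (1.03 and 0.970 on the fold, 1.13 and 1.06 on the pileup), near those of the chromosome 21 units. An RBMX peak overlapped 95.8% of 24 and 77.4% of 31 RPA1 peaks there, against 67.6% on chromosome 21. Like the units, both sequences had low peaks, with median RBMX summits of 20 and 19 tags and median RPA1 summits of 25 and 23.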

How the data were processed

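Peak lists of 4 precipitations were used; the 2 inputs were not analysed here. Per the file headers, the authors called replicate 1 with MACS 1.4.2 without a control at a p-value of 1e-05, and replicate 2 with MACS2 2.2.4 at a p-value of 1e-12, with the local background off, tags of 150 bp extended to 200 bp and at most 1 tag per position, which caps the height of a peak. The build was hg38, and Bowtie2 and deepTools 3.4.1 are also named, per the submitters' processing notes. The deposited replicate 2 values are the pileup signal at the summit after scaling to the smaller of precipitation and input, the −log10 p-value and q-value, and the fold, a ratio to the genome-wide background. The deposited replicate 1 tag counts, scores and folds were not used, as no peak lay in the units. Dividing the pileup by the scale gave whole tags within 0.02 for 100% of summits. Depth-scaled tags are tags per 1000000 tags after filtering.

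Positions of genes and microRNA sequences came from RefSeq tables of GRCh38.p14, matched by symbol, and parts of the unit were derived from the bounds of the 18S, 5.8S and 28S genes. Each unit ran from its 45S start to the next unit or, for RNA45SN2, to the partial copy; that of RNA45SN1 ended 30 kb past the gene. A summit set the part of a peak. Peaks overlapped when sharing at least 1 bp, and overlapping peaks of both lists were merged into stretches, each with its highest summit per list. Shares have Clopper-Pearson, tags exact Poisson and ratios exact binomial 95% intervals. Genes named were the 45S genes, all annotated genes of the stretch, the 3 highest peaks per unit and list, and like loci. The members and lists were chosen with earlier results of these data known. Python 3.11.15, pandas 2.3.3, NumPy 2.4.6, SciPy 1.17.1 and matplotlib 3.10.9 were used, and the scripts were tested on simulated data. Alternatives were another overlap, threshold, distance, scale and left-out replicate.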

Additional observations from a re-analysis of the deposited data

How the results depend on the processing

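Of 50 alternative values, 32 kept the result, 16 moved it and 2 reversed it. The 32 include values that were fixed in advance and so show nothing about stability. Leaving out replicate 1 could change no value, as it has no peaks here. A floor of 16 tags had to leave all 71 RPA1 peaks, as the lowest summit of that list has 16. With RBMX over RPA1 by 1.5 times in 0 stretches, 0 at 2 times was also given. Leaving out a replicate gave 63 and 0 RBMX peaks and 71 and 0 RPA1 peaks, since replicate 1 has none here. A −log10 p of at least 20 left 48 RBMX and 42 RPA1 peaks; it removes RPA1 summits below 23 tags and RBMX summits below 17. With an overlap of 50% of both peaks the shares were 49.2% (RBMX) and 43.7% (RPA1), and with summits within 100 bp they were 36.5% and 32.4%, against 65.7%, 74.6%, 58.4% and 66.2% over the whole lists. With a floor of 16 tags in both lists, chosen after seeing the data, 51 RBMX peaks remained and the shares were 80.4% and 56.3%. Summits shared by all 3 units numbered 1 (RBMX) and 4 (RPA1) within 100 bp and 17 and 37 within 500 bp, and by midpoint 0 RBMX peaks and 15 RPA1 peaks. The median ratio of RBMX to RPA1 was 1.11 on the deposited pileup and 1.01 on the deposited fold, against 0.817 in depth-scaled tags. RPA1 exceeded RBMX in 0 stretches by 2 times, in 0 on the pileup, in 0 on the fold and in 3 with summits within 100 bp, against 8. The causes were not tested. No paired analysis was possible because 1 list per protein has peaks in the units, the results come from no test, and the replicate number 1 was given in accession order. Depth limits single positions: at 14 to 57 tags per summit, most ratios cannot be told from 1.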

Other observations

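Between the spacer of RNA45SN2 and RNA45SN3 the annotation places a partial copy of the unit. It runs for 11426 bp from MIR6724-2 through RNA18SP5 and RNA5-8SP10 to LOC110467529, all but the first annotated as pseudogenes. MIR6724-2 lies 44190 bp after MIR6724-1, and RNA45SN1 starts 44187 bp after RNA45SN3. The partial copy held 3 RBMX summits of 15 to 22 tags and 3 RPA1 summits of 18 to 27 tags, and 16.8% and 20.1% of it were covered. RNA18SP5 and RNA5-8SP10 had no peak. From the partial copy to RNA45SN3, 128104 bp, there was 1 RPA1 peak, that over MIR6724-3, and no RBMX peak; whether this sequence holds assembly gaps was not analysed here.

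Positions of peaks on the other copies were compared with those of chromosome 21, counted from the 45S start with 200 bp allowed. For RBMX, 10 of 20 summits of RNA45SN4 and 13 of 24 of RNA45SN5 had a partner on chromosome 21. For RPA1 these were 6 of 17 and 12 of 24. A partner could be any of the 60 RBMX or 68 RPA1 summits placed by distance on chromosome 21. The share that unrelated positions would give was not computed, so no likeness of positions is read from these counts.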
